A study of Mus musculus with 28 samples.

Results

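The early response of B6.Sle1b CD4+ T cells to anti-CD3 was taken as the difference between 2 groups of 3 arrays, 6 of the 28 samples of the series. One group held unstimulated splenic CD4+ T cells of B6.Sle1b mice, and the other held CD4+ T cells of the same strain after 4 h on plate-bound anti-CD3. The samples were chosen by their labels alone, and every one of the 17097 genes with a named probe set was compared. B6.Sle1b is a congenic mouse strain that carries the lupus-susceptibility interval Sle1b, which holds genes of the SLAM family of surface receptors, on a C57BL/6 background. All mice were 12-week-old females. Total CD4+ T cells, and not a naive subset, were taken, and stimulation used antibody clone 145-2C11 at 0.1 µg/ml in U-bottom 96-well plates with complete RPMI at 37 °C. No other stimulus such as anti-CD28 is named. The labels do not say whether the unstimulated cells spent any time in culture, so antibody, plate and culture time cannot be told apart here. Replicates are labelled as biological, and the number of mice behind each one was not given in the sources used here. The p-values therefore speak of the spread among arrays. That spread was estimated over the 26 biological arrays of all strains and times, and not over these 6 alone. For comparison the same step was measured in C57BL/6 and in Sle1b.BACSlamf6-H1, a strain that carries the Sle1b interval together with a BAC transgene of the H1 isoform of Slamf6 (3 arrays per group in each), and B6.Sle1b was also measured after 24 h (3 arrays).

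Anti-CD3 antibody crosslinks the CD3 chains that carry the signal of the T cell receptor. Tyrosine kinases then phosphorylate the receptor and its adaptors, calcium activates the phosphatase calcineurin and through it the NFAT factors, and diacylglycerol opens the Ras and NF-kappaB routes. Immediate early genes such as Fos, Egr1 and the Nr4a receptors are transcribed first, cytokine genes follow, and growth and division come later. Secreted interferon acts back on the cells through STAT proteins, which bind the letters known as GAS and ISRE in the promoters of interferon-induced genes.

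The measurements were gene expression levels on the log2 scale, from arrays normalized by RMA. A gene was called at a Benjamini-Hochberg adjusted p under 0.05 in limma, and the words rose and fell are used of called genes. A call described as lost without any of n arrays ended when any 1 of those n, out of the 6, was left out. The 6 arrays correlated at 0.970 to 0.996 within a group and at 0.972 to 0.987 between the groups. The least alike replicates of a group thus correlated less than any pair across the groups. Replicate 3 was dim in both groups, with a 75th percentile of 35.6 unstimulated and 39.2 at 4 h against 45.5 to 53.3 on the other 4 arrays, and had the highest 18S ribosomal RNA signal of its group. Each group thus held 1 dim array, and counts without both are given beside the lists. The actin 3' minus 5' signal, a sign of RNA integrity, was 1.44, 1.36 and 1.49 unstimulated and 1.22, 1.17 and 1.35 at 4 h, so it was lower at 4 h with no overlap. The same signal of Gapdh was 0.51, 0.31 and 0.42 and then 0.41, 0.30 and 0.45, and the groups overlapped. The part of RNA integrity in the results was not tested. The lists of genes used below are described by counts and medians, beside 2.57% of all genes called higher, 3.12% called lower and a median difference over all genes of -0.01.

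The labelled cell type was checked on its markers. Cd3e, a signalling chain of the T cell receptor complex, read 8.13, 8.14 and 7.66 unstimulated and 8.12, 8.16 and 7.83 at 4 h, and Cd4 read 6.44, 6.55 and 5.48 and then 5.71, 6.00 and 5.58, all above the array background of 2.87 to 3.06. Cd4 was not called (limma adjusted p 0.388). Without both dim arrays it was called lower (log2 difference -0.64, limma adjusted p 0.0225), and also with array weights. Cd8a, a defining gene of CD8 T cells, read 2.96, 2.96 and 3.03 and then 2.93, 2.82 and 3.16, at about the background. The mean log2 level of the 10 CD4+ T cell marker genes was 9.58, 9.55 and 9.31 unstimulated and 9.46, 9.54 and 9.29 at 4 h, which differed by less between the groups than within them. Markers of other cells were measured too. On the unstimulated arrays 15 B cell genes averaged 5.24 to 5.36, 13 monocyte genes 4.49 to 4.77, 10 NK cell genes 5.27 to 5.51, 10 neutrophil genes 3.79 to 4.94, 6 plasma cell genes 5.43 to 6.28 and 6 erythroid genes 5.90 to 6.96. The 4 h arrays averaged 4.86 to 5.29, 4.40 to 4.50, 5.01 to 5.12, 3.56 to 4.68, 5.03 to 5.35 and 5.74 to 6.47. Jchain, the joining chain of secreted IgM and IgA made by plasma cells, was bright throughout, at 12.50, 11.82 and 12.54 unstimulated and 12.16, 11.53 and 12.42 at 4 h (log2 difference -0.25 ± 0.38, SE, limma adjusted p 0.919). Over the marker lists of 9 other cell types, 1 of 15 B cell, 2 of 6 plasma cell, 1 of 10 neutrophil and 2 of 10 NK cell genes fell and 1 of 13 monocyte genes rose. No gene of the dendritic cell, CD8, erythroid or platelet lists was called by limma, and 0 had an unadjusted p under 0.05.

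In B6.Sle1b CD4+ T cells after 4 h with anti-CD3, chemokine, cytokine and interferon-induced genes rose most among the gene lists. Some genes of resting cells, such as Klf4 and S1pr1, fell, and others, such as Bach2, rose. By limma, 440 of 17097 genes (2.57%) rose and 533 (3.12%) fell. The rises were larger: 199 rises and 159 falls were beyond 2-fold, and 44 rises and 7 falls were beyond 4-fold. The 3 arrays of one group did not overlap the 3 of the other for 436 of the rises and 524 of the falls, beside 1183 and 1406 genes (6.92% and 8.22%) among all 17097. Without both dim arrays 284 genes rose, 268 of them among the 440, and 428 fell. The count of falls was also low without unstimulated replicate 1 (352) and without 4 h replicate 3 (335). The volcano plot of all genes shows the long right arm of the response.

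**Figure D1:**
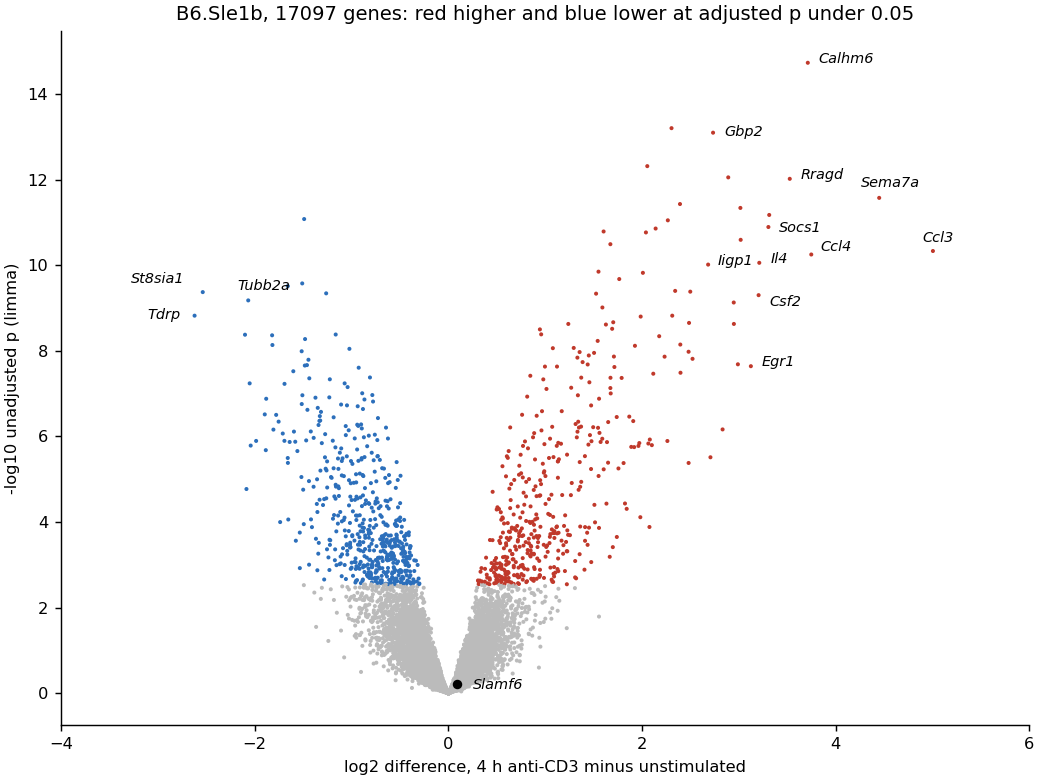
Each point is 1 of 17097 genes, placed by its log2 difference between 4 h anti-CD3 and unstimulated B6.Sle1b CD4+ T cells (x axis) and by the -log10 of its unadjusted limma p (y axis); red points rose and blue points fell at an adjusted p under 0.05. The right arm reaches 5.0 (Ccl3) and the left arm -2.62 (Tdrp), and Slamf6, the black point, sits near 0 at 0.09.

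Chemokines for monocytes and T cells led the rises. Ccl3, which encodes the chemokine MIP-1 alpha, read 3.80, 3.36 and 2.54 on the unstimulated arrays of replicates 1, 2 and 3 and 8.73, 8.58 and 7.40 at 4 h. Every stimulated array lay far above every unstimulated one, a log2 difference of 5.0 ± 0.41 (SE, 32.1-fold, adjusted p 4.16e-08). Its neighbour in function Ccl4 rose by 3.75 ± 0.31. Sema7a, a membrane-anchored semaphorin that binds integrins, read 3.84, 4.49 and 3.93 and then 8.77, 8.98 and 7.86, a rise of 4.45 ± 0.31 (21.8-fold). Calhm6, of the calcium homeostasis modulator family, had the smallest p of the leading genes, with 5.96, 6.13 and 6.27 against 9.84, 9.86 and 9.80 (3.71 ± 0.18, adjusted p 3.15e-11). Replicates of this gene differed by at most 0.31 while the groups lay 13.1-fold apart.

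Others of the 15 largest rises act in signalling and growth. Rragd, a Rag GTPase that relays amino acid supply to mTORC1, rose by 3.53 ± 0.23 from 4.41, 4.86 and 4.05 to 8.03, 7.87 and 8.01. The actin motor gene Myo6 rose by 3.31 ± 0.24, and the zinc finger gene Hivep3 by 2.95 ± 0.30. The other probe sets of Hivep3 above background were dimmer, differed by -0.06 to 0.40 and were not called. Frmd4b, a FERM domain scaffold, read 6.40, 6.14 and 6.09 and then 9.21, 9.13 and 9.36, a rise of 3.02 ± 0.24. It was back at 6.57, 5.87 and 6.20 after 24 h. The guanylate-binding protein gene Gbp10, the deubiquitinating enzyme gene Usp18, which curbs interferon receptor signalling, and the antiviral synthetase gene Oas2 rose by 3.02 ± 0.22, 2.99 ± 0.34 and 2.95 ± 0.28.

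The 15 largest falls were smaller and included Mxd4 and Klf4, which hold back growth. Tdrp read 9.37, 9.61 and 9.03 and then 6.60, 7.04 and 6.50 (-2.62 ± 0.26, adjusted p 6.74e-07). St8sia1, which makes the ganglioside GD3, fell by 2.54 ± 0.23, to 3.45, 3.94 and 3.36. Both genes separated the groups with no overlap. Mxd4 encodes a MAX partner that opposes MYC, and fell by 1.82 ± 0.20, from 8.95, 8.85 and 8.45 to 7.14, 7.06 and 6.59. Rcan3, a regulator of calcineurin, fell by 2.09 ± 0.38 and Eif2ak3, the endoplasmic reticulum stress kinase PERK, by 1.90 ± 0.26. Tsc22d1 (-2.10), the tubulin gene Tubb2a (-2.07), the RNA-binding protein gene Mex3b (-2.05), 1110032F04Rik (-2.04), carboxypeptidase gene Cpm (-1.99), Pgap1 (-1.89), which remodels GPI anchors, Klf4 (-1.88), Emp1 (-1.82) and Rassf3 (-1.78) followed. Stfa3, a stefin of myeloid cells, read 4.74, 3.78 and 5.39 unstimulated and 2.99, 2.67 and 2.83 at 4 h, where it was not above the array background, so its fall was at least 3.16-fold. These 15 falls and the 15 largest rises kept their calls when any 1 of the 6 arrays was left out.

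Letters of the factors named above were looked for in promoters. RefSeq promoters of GRCm38.p6, 250 bases before to 50 after a start, were matched by symbol to 13605 of the tested genes, and 4 interferon-induced genes and Il4 are printed for the sites they hold. ISRE letters (GAAA, any 2 bases, GAAA) stand in capitals in Socs1, where 2 matches overlap, in Gbp2, where they lie on the other strand, and in Calhm6. In Igtp the capitals mark GAS letters (TTCNNNGAA) and then ISRE letters. In Il4 they mark 5 copies of the NFAT core GGAAA, or TTTCC on the other strand.
Socs1: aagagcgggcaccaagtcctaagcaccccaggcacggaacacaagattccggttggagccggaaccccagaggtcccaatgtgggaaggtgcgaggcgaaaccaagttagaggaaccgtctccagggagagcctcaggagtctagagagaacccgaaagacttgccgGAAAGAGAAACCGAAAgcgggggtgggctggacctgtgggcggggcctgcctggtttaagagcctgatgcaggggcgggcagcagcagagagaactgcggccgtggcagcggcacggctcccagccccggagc
Gbp2: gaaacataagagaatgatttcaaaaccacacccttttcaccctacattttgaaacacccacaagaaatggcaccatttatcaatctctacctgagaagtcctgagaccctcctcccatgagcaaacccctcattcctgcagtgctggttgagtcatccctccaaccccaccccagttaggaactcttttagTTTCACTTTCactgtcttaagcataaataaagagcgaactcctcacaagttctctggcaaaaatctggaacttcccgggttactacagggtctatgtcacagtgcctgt
Calhm6: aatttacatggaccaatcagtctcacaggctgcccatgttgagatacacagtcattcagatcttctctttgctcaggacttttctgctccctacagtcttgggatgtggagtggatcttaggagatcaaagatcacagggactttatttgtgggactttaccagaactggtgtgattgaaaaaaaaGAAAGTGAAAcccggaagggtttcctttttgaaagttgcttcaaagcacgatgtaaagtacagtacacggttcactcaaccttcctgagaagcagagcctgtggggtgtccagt
Igtp: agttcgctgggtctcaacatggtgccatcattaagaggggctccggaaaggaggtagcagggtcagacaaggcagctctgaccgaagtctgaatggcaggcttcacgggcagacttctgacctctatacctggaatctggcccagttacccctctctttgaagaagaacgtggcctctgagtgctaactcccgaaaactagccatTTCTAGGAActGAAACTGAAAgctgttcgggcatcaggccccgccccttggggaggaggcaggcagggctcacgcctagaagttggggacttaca
Il4: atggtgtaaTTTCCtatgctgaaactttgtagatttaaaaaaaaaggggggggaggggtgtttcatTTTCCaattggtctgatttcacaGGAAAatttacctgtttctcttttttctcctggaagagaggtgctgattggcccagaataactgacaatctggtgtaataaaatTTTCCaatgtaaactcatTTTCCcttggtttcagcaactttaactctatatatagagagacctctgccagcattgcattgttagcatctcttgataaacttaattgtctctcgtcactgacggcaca
The Socs1 sequence is chr16:10785487-10785786 on the minus strand, with matches that begin 83 and 77 bases before the start. Gbp2 is chr3:142620413-142620712 (plus), Calhm6 chr10:34127923-34128222 (minus) and Igtp chr11:58199306-58199605 (plus), with ISRE matches 59, 64 and 34 bases before the start. Il4, with 2 listed promoters of which the printed one is chr11:53618616-53618915 (minus), has its NFAT letters between 241 and 59 bases before the start. Both strands were searched, and a gene with several listed starts was counted when any of its promoters matched. ISRE letters were in 13.3% of 362 rising genes with a promoter, 2.83% of 424 falling genes and 3.59% of all 13605 genes. GAS letters were in 15.5%, 8.73% and 8.76%. The letters of AP-1 (TGANTCA) were in 8.84%, 6.13% and 7.71%, of the NFAT core in 72.7%, 62.7% and 63.4%, of NF-kappaB (GGG, any 2 bases, TTTCC) in 3.59%, 3.07% and 1.90%, and of the E-box (CACGTG) bound by MYC in 6.63%, 15.3% and 10.2%. Among the 13605 genes 35 (0.257%) had a promoter with 2 or more ISRE matches, as Socs1 did, and 102 (0.75%) had one with 5 or more NFAT cores, as Il4 did. Every NF-kappaB match contains an NFAT core and ISRE matches can contain one, and a match only describes the window.

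**Figure D2:**
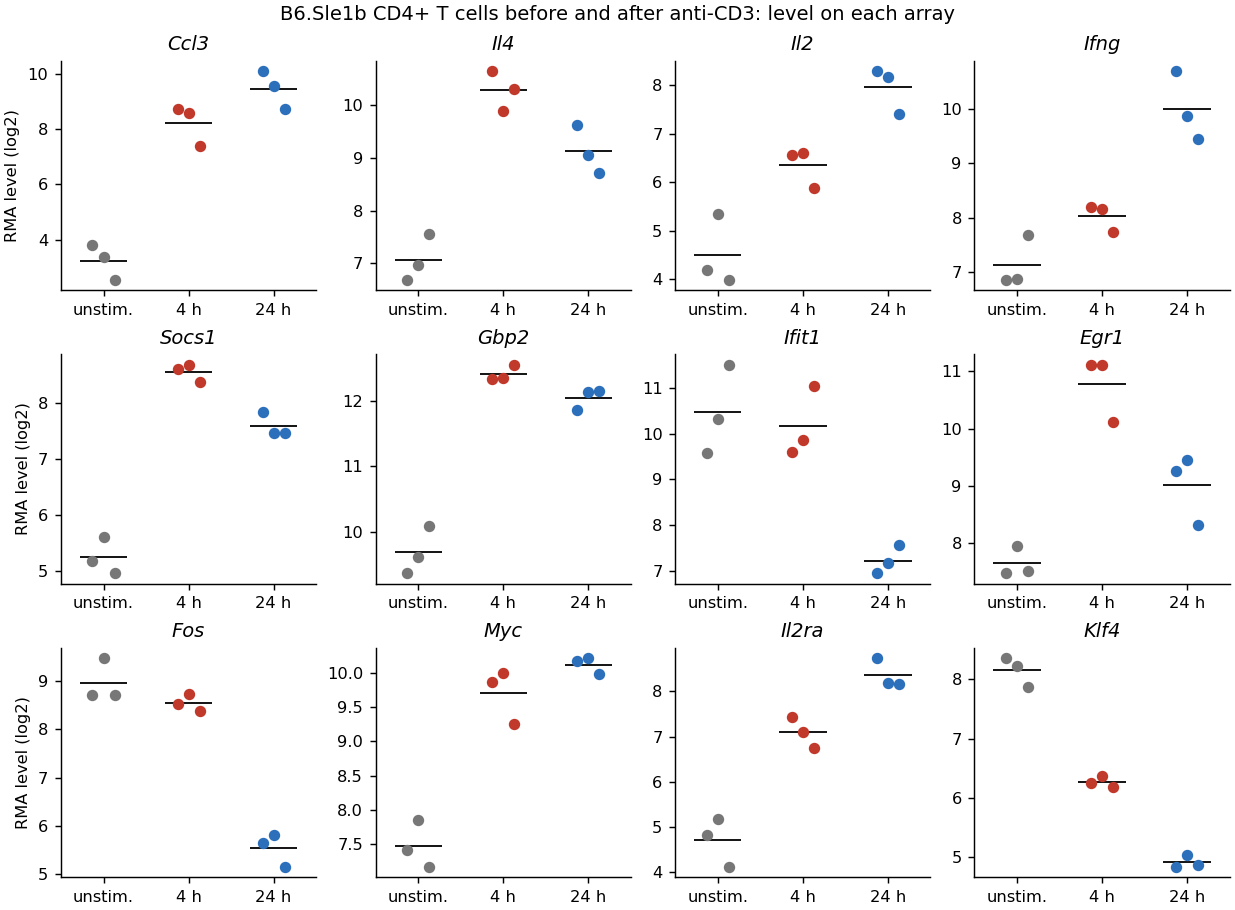
Each point is 1 array of B6.Sle1b CD4+ T cells (y axis, RMA level in log2; each panel has its own range) unstimulated, at 4 h or at 24 h of anti-CD3, for 12 genes, with a bar at the mean of 3. Ccl3, Il4, Socs1, Gbp2, Myc, Il2ra and Egr1 are higher on every 4 h array than on any unstimulated one and Klf4 is lower, while the Fos and Ifit1 groups overlap at 4 h and are lower at 24 h.

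Of 25 cytokine and chemokine genes 10 rose and 1 fell, with a median difference of 0.61 against -0.01 over all genes. The rises were Ccl3, Ccl4, Il4, Csf2, Lif, Tnf, Il17a, Il2, Lta and Xcl1, and they kept their calls without any single array and without both dim arrays. Il4, which directs helper cells towards type 2 responses, read 6.69, 6.97 and 7.55 unstimulated and 10.64, 9.88 and 10.31 at 4 h (3.21 ± 0.27, 9.26-fold, adjusted p 7.1e-08). Csf2, the gene of GM-CSF, read 3.36, 3.19 and 3.77 and then 6.75, 6.69 and 6.48 (3.20 ± 0.30). Il2, the growth factor of activated T cells, was low before stimulation at 4.19, 5.34 and 3.99 and reached 6.55, 6.60 and 5.89 (1.84 ± 0.36, adjusted p 0.00226). Neither its highest unstimulated array nor any other overlapped the stimulated ones.

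The remaining rises in this list were between 2.7-fold and 4.8-fold. Lif, of the interleukin 6 family, rose by 2.26 ± 0.34 and Tnf by 2.10 ± 0.32, from 5.13, 5.91 and 5.0 to 7.87, 7.75 and 6.72. Il17a, the signature cytokine of Th17 cells, rose by 1.89 ± 0.29 from 3.84, 3.66 and 4.30 to 5.68, 6.04 and 5.74. Lta, the gene of lymphotoxin alpha, rose by 1.68 ± 0.21. Xcl1, a chemokine for dendritic cells that carry XCR1, rose by 1.45 ± 0.31. The single fall was Il10, an inhibitory cytokine, at 6.48, 6.93 and 6.46 and then 5.23, 5.15 and 5.24 (-1.42 ± 0.29, adjusted p 0.00367).

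Ifng, the gene of interferon gamma, was not called in B6.Sle1b. It read 6.86, 6.87 and 7.68 unstimulated and 8.19, 8.15 and 7.73 at 4 h, so the highest unstimulated array came within 0.05 of the lowest stimulated one, and the difference was 0.89 ± 0.30 (adjusted p 0.102). With the replicate number as a block it was called (adjusted p 0.0479). Replicate 3 had both the highest unstimulated and the lowest stimulated value. Without both dim arrays, which are those of replicate 3, Ifng was called (log2 difference 1.31, limma adjusted p 0.031). It was also called after quantile normalizing again, with array brightness as a covariate and with array weights. At 24 h the gene read 10.70, 9.88 and 9.46. Il21, a cytokine of follicular helper cells, read 5.64, 5.57 and 5.70 and then 4.69, 5.10 and 4.28 (-0.95 ± 0.46, adjusted p 0.35). The chemokine genes Ccl5 (10.35, 10.84 and 10.58, then 9.96, 10.45 and 10.52) and Cxcl10 (9.19, 9.65 and 10.48, then 8.82, 9.06 and 9.98) were bright before stimulation and were not called.

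Interferon-induced genes had the most called members of any list: 15 of 26 rose and 0 fell by limma (18 and 0 at an unadjusted p under 0.05), with a median of 0.87 against -0.01 over all genes. Without any single array the count was 12 to 16, and it was 12 without both dim arrays. Several are GTPases that attack the vacuoles of pathogens. Gbp2 read 9.36, 9.62 and 10.08 and then 12.34, 12.36 and 12.56 (2.73 ± 0.16, 6.65-fold, adjusted p 4.51e-10), and Iigp1 rose by 2.68 ± 0.23 (6.42-fold). The stimulated arrays agreed within 0.22 for Gbp2 and within 0.26 for Iigp1. Gbp3 (1.06 ± 0.20) and Irgm1 (1.05 ± 0.21) rose as well. Igtp rose by 0.82 ± 0.20 (adjusted p 0.0143) and lost the call without unstimulated replicate 1 (adjusted p 0.0871), unstimulated replicate 3 (0.0549) or 4 h replicate 2 (0.0583).

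Other members of this list sense or signal. Usp18 read 5.55, 6.16 and 6.96 unstimulated and 9.09, 8.97 and 9.58 at 4 h. Oas2 started near the floor at 3.82, 4.09 and 3.81 and reached 7.06, 6.56 and 6.94 (7.71-fold). Stat2, a subunit of the type I interferon factor ISGF3, rose by 1.92 ± 0.29, Irf7, which drives interferon alpha genes, by 1.41 ± 0.22, and Ifi35 by 1.08 ± 0.12. The immunoproteasome genes Psmb9 and Psmb8 rose by 1.24 ± 0.13 and 0.85 ± 0.10, and Oas3 by 0.90 ± 0.16. Oasl2 (1.67 ± 0.42) and the RNA sensor gene Ddx58 (0.85 ± 0.21) were called as well, and each lost the call without either of 2 arrays (highest adjusted p 0.0914 and 0.13). Of the 21 genes of this list with a promoter, 11 (52.4%) held ISRE letters there, as did 7 of the 12 (58.3%) that rose.

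The 11 genes of this list that were not called included some already bright and uneven before stimulation. Ifit1, which binds foreign RNA, read 9.58, 10.33 and 11.51 unstimulated and 9.60, 9.86 and 11.05 at 4 h (-0.30 ± 0.57, adjusted p 0.939). Rsad2, the antiviral enzyme viperin, read 8.35, 9.01 and 9.16 and then 8.07, 8.38 and 9.16, and the RNA sensor gene Ifih1 8.35, 9.19 and 9.72 and then 7.91, 8.52 and 9.21. In these 3 genes replicate 3 was the brightest in both groups. Ifit3 read 6.28, 7.10 and 8.78 and then 8.51, 8.53 and 9.78 (1.56 ± 0.60, adjusted p 0.173). Within each replicate number it was higher at 4 h, and it was called with the replicate block (adjusted p 0.0116). Irf1, a factor induced by interferon gamma, read 10.31, 10.78 and 10.19 and then 11.07, 11.04 and 10.87 (0.57 ± 0.18, adjusted p 0.0815, and 0.0364 with the block). Mx1 was low in both groups, at 3.69, 3.89 and 4.01 and then 3.89, 3.34 and 3.94. Oasl1 and Irf9 differed by -0.42 ± 0.43 and 0.31 ± 0.16.

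One chain each of the interferon gamma and type I interferon receptors was called. Ifngr2, the signalling chain of the interferon gamma receptor, fell by 1.21 ± 0.21, from 7.71, 7.94 and 7.48 to 6.33, 6.75 and 6.44 (adjusted p 0.000567). A second probe set of Ifngr2, above background, differed by -0.04 ± 0.17, and Ifngr1, the binding chain, by -0.24 ± 0.11 (adjusted p 0.321). Ifnar1, of the type I receptor, fell by 0.70 ± 0.20 (adjusted p 0.0447) and lost the call without any of 4 arrays (highest adjusted p 0.194).

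Of 22 immediate early regulators 2 rose and 4 fell, with a median of 0.20. Without single arrays the counts ran from 1 to 2 and from 1 to 4, the latter at 1 without unstimulated replicate 2, and without both dim arrays they were 1 and 3. Egr1, a zinc finger factor of the Ras route, read 7.48, 7.96 and 7.52 unstimulated and 11.11, 11.11 and 10.12 at 4 h (3.12 ± 0.36, 8.72-fold, adjusted p 5.16e-06). Its relative Egr2 read 7.69, 8.34 and 7.46 and then 9.38, 9.28 and 8.27 (1.15 ± 0.38, adjusted p 0.0969, and 0.008 with the replicate block), with 4 h replicate 3 below the highest unstimulated array. Jun rose by 1.07 ± 0.31 (adjusted p 0.045) and lost the call without any of 5 arrays (highest adjusted p 0.199).

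Fos, Fosl2 and the Nr4a orphan nuclear receptors were not called. Fos read 8.72, 9.47 and 8.70 and then 8.53, 8.74 and 8.38 (-0.41 ± 0.27, adjusted p 0.607). Nr4a1 read 10.32, 11.24 and 10.15 and then 11.47, 11.69 and 10.60 (0.68 ± 0.38, adjusted p 0.482), and Nr4a2 and Nr4a3 differed by 0.52 ± 0.39 and 0.25 ± 0.32. Unstimulated and 4 h arrays overlapped in each of these 4 genes. Fosl2 read 10.30, 10.52 and 9.62 and then 9.88, 9.90 and 9.14.

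The falls in this list were Fosb, Junb, Klf6 and Klf10. Fosb read 5.12, 6.46 and 4.97 and then 3.71, 4.31 and 3.82 (-1.58 ± 0.36, adjusted p 0.00858), and was not called without unstimulated replicate 2 (adjusted p 0.0711), its brightest array. Klf10 fell by 1.32 ± 0.22, from 6.02, 6.09 and 5.39 to 4.41, 4.72 and 4.41. Klf6 fell by 0.59 ± 0.13 and lost the call without unstimulated replicate 2 (adjusted p 0.0582) or 4 h replicate 1 (0.0555). Junb fell by 0.88 ± 0.25 and lost the call without any of 5 arrays (highest adjusted p 0.191).

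Of 25 activation transcription factors 5 rose and 1 fell. Myc, which drives cell growth, read 7.41, 7.85 and 7.17 and then 9.86, 10 and 9.26 (2.23 ± 0.25, 4.70-fold, adjusted p 3.53e-06). Irf8 and Irf4, interferon regulatory factors of lymphocytes, rose by 2.71 ± 0.43 and 1.79 ± 0.22. Irf8 started unevenly at 6.06, 6.20 and 4.64 and reached 8.57, 8.47 and 7.98, while Irf4 went from 8.13, 8.95 and 8.24 to 10.26, 10.41 and 10.01. Tbx21, the gene of the Th1 factor T-bet, rose by 2.08 ± 0.44 from 4.89, 5.39 and 3.79 to 7.02, 7.20 and 6.08. All 3 stimulated arrays of each of these genes lay above the unstimulated ones. Batf, an AP-1 partner of Irf4, rose by 0.86 ± 0.19 and was not called without unstimulated replicate 2 (adjusted p 0.055). Gata3, the Th2 factor, read 6.67, 6.86 and 5.15 and then 7.47, 7.42 and 7.01 (1.07 ± 0.38, adjusted p 0.129, and 0.0312 with the block). Xbp1, a factor of the unfolded protein response that plasma cells express strongly, fell by 0.63 ± 0.16 and lost the call without any of 4 arrays (highest adjusted p 0.0839).

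Among 17 genes of the NF-kappaB route 1 rose and 2 fell, and none of these calls held without each array in turn. Without both dim arrays 0 rose and 1 fell. Ikbke, an IKK-related kinase, rose by 1.13 ± 0.29 (highest adjusted p 0.102), and the inhibitors Tnfaip3 (A20) and Tnip1 fell by 0.53 ± 0.14 and 0.82 ± 0.23 (highest adjusted p 0.14 and 0.158). Nfkbia, the inhibitor that NF-kappaB itself induces, read 10.84, 10.96 and 10.87 and then 10.90, 11.01 and 10.90. It moved by less than the spread within a group.

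Feedback inhibitors split, with 5 of 25 higher and 5 lower. Socs1, which blocks JAK kinases, read 5.19, 5.61 and 4.97 unstimulated and 8.61, 8.69 and 8.39 at 4 h (3.30 ± 0.25, 9.88-fold, adjusted p 1.67e-08). Cish, an inhibitor of STAT5 signalling, rose by 1.34 ± 0.17 from 7.76, 8.0 and 7.59 to 9.32, 9.12 and 8.92. Rgs1, which dampens chemokine receptor signals, rose by 0.89 ± 0.13. The ERK phosphatase gene Dusp6 rose by 1.14 ± 0.27 and Spred1, a brake on the Ras route, by 0.80 ± 0.18, and each lost its call without 1 array (Dusp6 without 4 h replicate 2, adjusted p 0.0794, and Spred1 without 4 h replicate 1, adjusted p 0.0838).

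Other brakes on signalling went down. Dusp1, a MAP kinase phosphatase that is itself an immediate early gene, read 10.82, 10.85 and 10.29 and then 9.40, 9.65 and 9.16 (-1.25 ± 0.20). Dusp10 fell by 1.07 ± 0.13, from 10.09, 10.28 and 9.82 to 8.86, 9.12 and 9.01, and Rgs2 by 0.98 ± 0.17. Each of the 3 kept its call without any single array. Sla2, an adaptor that lowers receptor levels, fell by 0.64 ± 0.18 and Ubash3a, a phosphatase of the receptor pathway, by 0.82 ± 0.22, and each lost its call without any of 4 arrays (highest adjusted p 0.188 and 0.173).

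Receptor signalling genes downstream of CD3 were raised at single points: 5 of 21 rose and 2 fell, with a median of 0.08, and without both dim arrays 4 rose and 3 fell. Lcp2, the adaptor SLP-76, rose by 1.59 ± 0.15, from 8.83, 8.89 and 8.72 to 10.55, 10.60 and 10.07. The kinase gene Prkcq, for protein kinase C theta, rose by 1.44 ± 0.17 and Rasgrp1, which activates Ras, by 1.33 ± 0.15. Cd247, the zeta chain of the receptor, rose by 0.62 ± 0.10 from 9.69, 9.56 and 9.66 to 10.22, 10.39 and 10.18. Grap2, an adaptor that binds SLP-76, fell by 1.42 ± 0.21, from 6.47, 7.35 and 6.80 to 5.37, 5.73 and 5.26. The costimulatory receptor gene Cd28 fell by 0.55 ± 0.15 and lost the call without any of 5 arrays (highest adjusted p 0.165). Zap70 and Lat, the proximal kinase and scaffold, differed by 0.23 ± 0.24 and -0.42 ± 0.15 and were not called.

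Of 27 activation surface proteins 8 rose and 1 fell. Il2ra, the high-affinity chain of the interleukin 2 receptor, read 4.83, 5.17 and 4.12 and then 7.44, 7.11 and 6.75 (2.40 ± 0.26, 5.26-fold, adjusted p 2.25e-06). Cd274, the gene of PD-L1, read 7.74, 8.14 and 7.85 and then 9.67, 9.61 and 9.68 (1.74 ± 0.24). The TNF family genes Tnfsf8 and Tnfrsf9 rose by 1.04 ± 0.24 and 0.99 ± 0.17, and Cd200 by 0.97 ± 0.13. Cd69, the early activation antigen, was bright without antibody at 9.96, 10.17 and 10.52 and read 11.22, 11.19 and 11.19 at 4 h (0.98 ± 0.23, adjusted p 0.0101). It was not called without unstimulated replicate 1 (adjusted p 0.0682). Tnfsf14 rose by 0.76 ± 0.21 and lost the call without any of 4 arrays (highest adjusted p 0.187). Cd160 rose by 0.87 ± 0.25 and lost it without any of 5 arrays (0.22) and with the replicate block (adjusted p 0.0613). Ctla4, which restrains costimulation, fell by 0.75 ± 0.14, from 10.07, 10.29 and 9.97 to 9.32, 9.28 and 9.48. Cd44, an adhesion receptor of memory cells, differed by -0.17 ± 0.16 and was not called.

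Genes of resting and naive T cells moved both ways, with 4 of 26 higher and 7 lower and a median of -0.29. Klf4, a factor that holds T cells out of cycle, read 8.36, 8.23 and 7.87 and then 6.26, 6.36 and 6.19 (3.68-fold lower, adjusted p 2.08e-05). S1pr1, the receptor for leaving lymphoid organs, read 9.62, 9.92 and 9.30 and then 8.14, 8.48 and 8.27 (-1.32 ± 0.18). Sesn1, an inhibitor of mTORC1, and Tob1, which opposes proliferation, fell by 1.05 ± 0.17 and 0.95 ± 0.17. Stimulated and unstimulated arrays did not overlap in any of these 4 genes. Klf3 (-0.83 ± 0.23), Tsc22d3 (-0.79 ± 0.21) and the cell cycle inhibitor gene Cdkn1b (-0.66 ± 0.15) fell too, but lost the call without any of 5, 4 and 2 arrays (highest adjusted p 0.17, 0.133 and 0.0692). Without single arrays 4 to 10 members of the list were lower, and 4 were without both dim arrays.

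The rises in the same list were Bach2, Slfn1, Ly6c1 and Ms4a4b. Bach2, a repressor that keeps lymphocytes undifferentiated, rose by 1.47 ± 0.25, from 8.13, 8.56 and 7.77 to 9.71, 9.80 and 9.36. Slfn1 rose by 1.13 ± 0.17, Ly6c1 by 1.04 ± 0.20 and Ms4a4b by 0.91 ± 0.18. These 4 kept their calls without any single array. Lef1, a factor of naive T cells, read 8.09, 8.49 and 7.35 and then 6.80, 7.11 and 6.74 (-1.10 ± 0.33, adjusted p 0.0542, and 0.0281 with the replicate block). Tob2 (-0.81 ± 0.27) was not called but was with the block (adjusted p 0.0113), and Klf2, which drives S1pr1, differed by -0.61 ± 0.26 and was not called. Among 8 GIMAP GTPases, survival factors of resting lymphocytes, Gimap5 (1.02 ± 0.24) and Gimap8 (0.60 ± 0.16) rose and Gimap6 (-0.47 ± 0.13) fell, and the 3 calls were lost without any of 2, 4 and 4 arrays (highest adjusted p 0.0763, 0.122 and 0.236) and without both dim arrays.

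Survival and death genes rose in 6 of 22 cases, with 1 fall, and without both dim arrays 4 rose and 0 fell. Bcl2, the founding survival gene of its family, read 7.35, 7.50 and 6.69 and then 8.96, 8.97 and 8.64 (1.67 ± 0.20, 3.19-fold, adjusted p 8.41e-06). The death receptor gene Fas read 7.14, 6.97 and 7.61 and then 8.60, 8.50 and 8.73 (1.37 ± 0.16). Gadd45g, a stress-induced activator of p38 in T cells, rose by 1.87 ± 0.26 and Casp8, the caspase of death receptors, by 1.0 ± 0.12. Genes for and against survival thus rose side by side. Bcl2l1, the gene of Bcl-xL, rose by 0.51 ± 0.15 and Birc3 by 0.31 ± 0.09, while the BH3-only gene Pmaip1 fell by 0.95 ± 0.25. Those calls were lost without any of 3, 5 and 4 arrays (highest adjusted p 0.222, 0.232 and 0.123), and that of Birc3 with the replicate block as well (adjusted p 0.0771).

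Of 26 receptors for cytokines and chemokines 3 rose and 4 fell, and without both dim arrays 1 rose and 3 fell. Gpr183, which guides lymphocytes by oxysterols, read 8.27, 8.21 and 8.32 and then 9.81, 10.07 and 9.55 (1.54 ± 0.16). Il4ra, the receptor chain for interleukin 4, rose by 1.19 ± 0.28 and Ccr2 by 1.01 ± 0.24, and lost the call without any of 3 and 2 arrays (highest adjusted p 0.0684 and 0.0943). Other Ccr2 probe sets above background differed by 0.58 ± 0.22 and 0.04 ± 0.18 and were not called. Besides the interferon receptor chains, S1pr4 fell by 0.81 ± 0.17 and Tgfbr2, a receptor for TGF-beta, by 0.82 ± 0.21, the latter not called without any of 4 arrays (highest adjusted p 0.125).

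Some growth genes rose within 4 h. Of 44 ribosome biogenesis genes 38 lay above 0, 8 rose and 0 fell by limma (17 and 0 at an unadjusted p under 0.05), with a median of 0.33 against -0.01 over all genes. Without single arrays 4 to 8 rose, and 5 did without both dim arrays. Noc4l (1.23 ± 0.27), Rrp1b (1.14 ± 0.18), Nolc1 (0.80 ± 0.17) and Dkc1, the pseudouridine synthase of snoRNPs (0.76 ± 0.10), kept the call without any single array. Dkc1 read 7.99, 7.85 and 7.63 and then 8.57, 8.65 and 8.53. Rrs1 (1.0 ± 0.25) and Rrp9 (0.58 ± 0.15) lost it without any of 3 arrays (highest adjusted p 0.0993 and 0.118). Srm, the spermidine synthase gene and a MYC target, read 7.01, 6.43 and 5.55 and then 7.87, 8.19 and 7.60 (1.56 ± 0.33, adjusted p 0.00516), and Prps1, which starts nucleotide synthesis, rose by 0.51 ± 0.10. These were the 2 rises among 22 nucleotide and polyamine genes. A second probe set of Prps1, above background, differed by 0.22 ± 0.13 and was not called.

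Most other metabolic lists had few calls. No gene of the 47 cytosolic ribosomal protein genes or the 32 of the respiratory chain and ATP synthase was called by limma, and 1 of each had an unadjusted p under 0.05. Glycolysis had 1 rise in 17, Hk1 (1.09 ± 0.30), lost without any of 4 arrays (highest adjusted p 0.164). Wars, the tryptophanyl-tRNA synthetase that interferon gamma induces, rose by 1.50 ± 0.17, from 5.94, 5.69 and 5.57 to 7.35, 7.30 and 7.06. Another of the 17 synthetases, Eprs, fell by 0.87 ± 0.13, from 9.53, 9.73 and 9.39 to 8.67, 8.66 and 8.70. Among 24 amino acid transport and serine genes Slc7a1 rose by 0.82 ± 0.22 and Slc38a2 fell by 0.56 ± 0.14, and both calls were lost without any of 4 and 3 arrays (highest adjusted p 0.151 and 0.0996). Their other probe sets above background, at 0.59 for Slc7a1 and -0.24 and -0.03 for Slc38a2, were not called. Of 19 translation initiation factors Eif4e fell by 0.43 ± 0.13, from a mean of 3.68 to 3.25, close to background. Among 21 chaperones Cct3 rose by 0.31 ± 0.09 and Dnajb9 fell by 0.62 ± 0.12. The calls of Eif4e and Cct3 were lost without any of 4 and 5 arrays (highest adjusted p 0.26 and 0.221) and with the replicate block (adjusted p 0.0787 and 0.079).

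Of 19 cholesterol synthesis genes 4 fell and 0 rose by limma (5 and 3 at an unadjusted p under 0.05), with a median of -0.10 and 8 members above 0. Without 4 h replicate 3, or without both dim arrays, 2 fell. Mvk, mevalonate kinase, fell by 1.12 ± 0.22, from 5.89, 6.48 and 5.11 to 4.53, 4.79 and 4.82, and Sc5d by 0.74 ± 0.14. Cyp51 fell by 0.66 ± 0.15 and Insig1, which holds back the SREBP factors, by 0.45 ± 0.11. Cyp51 was not called without 4 h replicate 3 (adjusted p 0.0544), nor was Insig1 (0.109), which also lost the call without unstimulated replicate 1 (0.0563).

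Cell cycle genes were called mainly among those of G1. Ccnd2, cyclin D2, rose by 1.45 ± 0.16, from 9.07, 9.41 and 9.32 to 10.79, 10.81 and 10.55, and Rbl1, the pocket protein p107, by 1.60 ± 0.27. A dimmer probe set of Rbl1, above background, differed by -0.59 ± 0.29 and was not called. In the same list of 19 genes 5 fell, 3 without both dim arrays: Ccne2 (-1.19 ± 0.25), the inhibitors Cdkn2d (-0.87 ± 0.19), Cdkn1a (-0.70 ± 0.20) and Cdkn1b, and Ccng2 (-0.82 ± 0.12), a cyclin of quiescent cells. Cdkn1a lost the call without any of the 6 arrays (highest adjusted p 0.208) and Cdkn1b without unstimulated replicate 2 (0.0602) or 4 h replicate 3 (0.0692). Of 24 DNA replication genes 0 rose and 2 fell, Mcm7 by 0.55 ± 0.13 and Pola1 by 0.74 ± 0.20, lost without any of 2 and 3 arrays (highest adjusted p 0.0986 and 0.195). At an unadjusted p under 0.05, 0 were higher and 5 lower, and without both dim arrays 1 fell. A second probe set of Mcm7, above background, differed by -0.29 ± 0.22 and was not called. Of 17 mitosis genes 0 were called by limma and 0 had an unadjusted p under 0.05.

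The SLAM family, several of whose genes lie in the Sle1b interval, was not called by limma at 4 h in any of its 9 measured members and adaptors, of which 1 had an unadjusted p under 0.05. Slamf6, a self-binding receptor of T cells, read 8.38, 8.68 and 8.15 and then 8.65, 8.20 and 8.62 (0.09 ± 0.17, adjusted p 0.94). The unstimulated and stimulated arrays overlapped. Slamf1 read 8.21, 8.67 and 9.13 and then 8.95, 9.23 and 9.21 (0.46 ± 0.19, adjusted p 0.227). Cd84 and Ly9 differed by 0.11 ± 0.19 and 0.11 ± 0.23, and Sh2d1a, the adaptor SAP, by -0.18 ± 0.16. Cd244a, Slamf8, Slamf9 and Sh2d1b1 lay between 2.40 and 3.88 on these arrays, close to background.

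Helper subset genes moved singly. Among 17 follicular helper genes Il4 and Cd200 rose and Sostdc1, a secreted antagonist of BMP and Wnt signals, fell from 5.72, 5.77 and 5.72 to 4.02, 4.38 and 4.07 (-1.58 ± 0.24, 2.99-fold, adjusted p 0.000124). Bcl6, the factor that defines these cells, read 8.65, 8.54 and 7.90 and then 8.11, 7.90 and 7.14 (-0.64 ± 0.35, adjusted p 0.462). Cxcr5, their homing receptor, differed by -0.73 ± 0.28 (adjusted p 0.18, and 0.0138 with the replicate block), and Icos by -0.02 ± 0.10. In the regulatory T cell list of 13, Foxp3 rose by 1.41 ± 0.38, from 5.87, 6.02 and 4.30 to 7.37, 6.62 and 6.42, and lost the call without any of 3 arrays (highest adjusted p 0.179) and without both dim arrays (0.13). Il2ra rose as well, while Ctla4, Il10 and Izumo1r, a folate receptor family gene (-0.55 ± 0.13, not called without 4 h replicate 3, adjusted p 0.0707), fell.

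Of 26 integrins and cytoskeleton regulators 3 rose and 2 fell. Itgb3, the beta chain of the vitronectin receptor, rose by 2.07 ± 0.31, from 6.07, 6.46 and 5.04 to 8.08, 7.98 and 7.71. Tagap, a GTPase-activating protein of activated T cells, rose by 1.05 ± 0.16, and Itga6 by 0.55 ± 0.16, the last lost without any of 5 arrays (highest adjusted p 0.216). Rhob, a GTPase gene of the immediate early class, fell by 0.99 ± 0.22 and Rac2, the Rac of blood cells, by 0.60 ± 0.11. Both falls kept their calls without any single array.

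Markers of other cells that moved are given here with their levels, since fewer cells of a type and less RNA per cell cannot be told apart in bulk samples. The plasma cell list averaged 6.28, 5.43 and 5.83 unstimulated and 5.35, 5.03 and 5.32 at 4 h. Its genes Eaf2 (-1.34 ± 0.33, mean 5.7 to 4.4) and Tnfrsf17, the receptor BCMA (-1.17 ± 0.28, mean 4.6 to 3.4), fell. Both were not called without unstimulated replicate 1 (adjusted p 0.0934 and 0.0867) or without 4 h replicate 2 (0.0993 and 0.0708), nor without both dim arrays. Nkg7, a granule gene of cytotoxic cells, fell by 1.47 ± 0.22, from 7.78, 7.80 and 7.62 to 6.43, 6.41 and 5.95. Klrb1c fell by 0.84 ± 0.21, from a mean of 3.9 to 3.0, close to background at 4 h. That call was lost without any of 3 arrays (highest adjusted p 0.101). The monocyte list gene Ms4a6d rose by 1.35 ± 0.19, from 4.33, 4.17 and 4.91 to 5.86, 5.66 and 5.93, while Lyz2 and Csf1r of that list differed by -0.56 ± 0.36 and -0.10 ± 0.17. In the neutrophil list S100a8 read 6.99, 7.64 and 4.12 and then 6.55, 7.81 and 4.79, so its level followed the replicate number. Blk fell by 0.79 ± 0.23 among the B cell genes, from a mean of 5.8 to 5.1, and lost the call without any of the 6 arrays (highest adjusted p 0.232). The T cell genes Trat1, a receptor-associated adaptor, and Thy1 moved in opposite ways, by 1.55 ± 0.27 and -0.63 ± 0.12. The part of these cells in the results above was not tested.

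**Figure D3:**
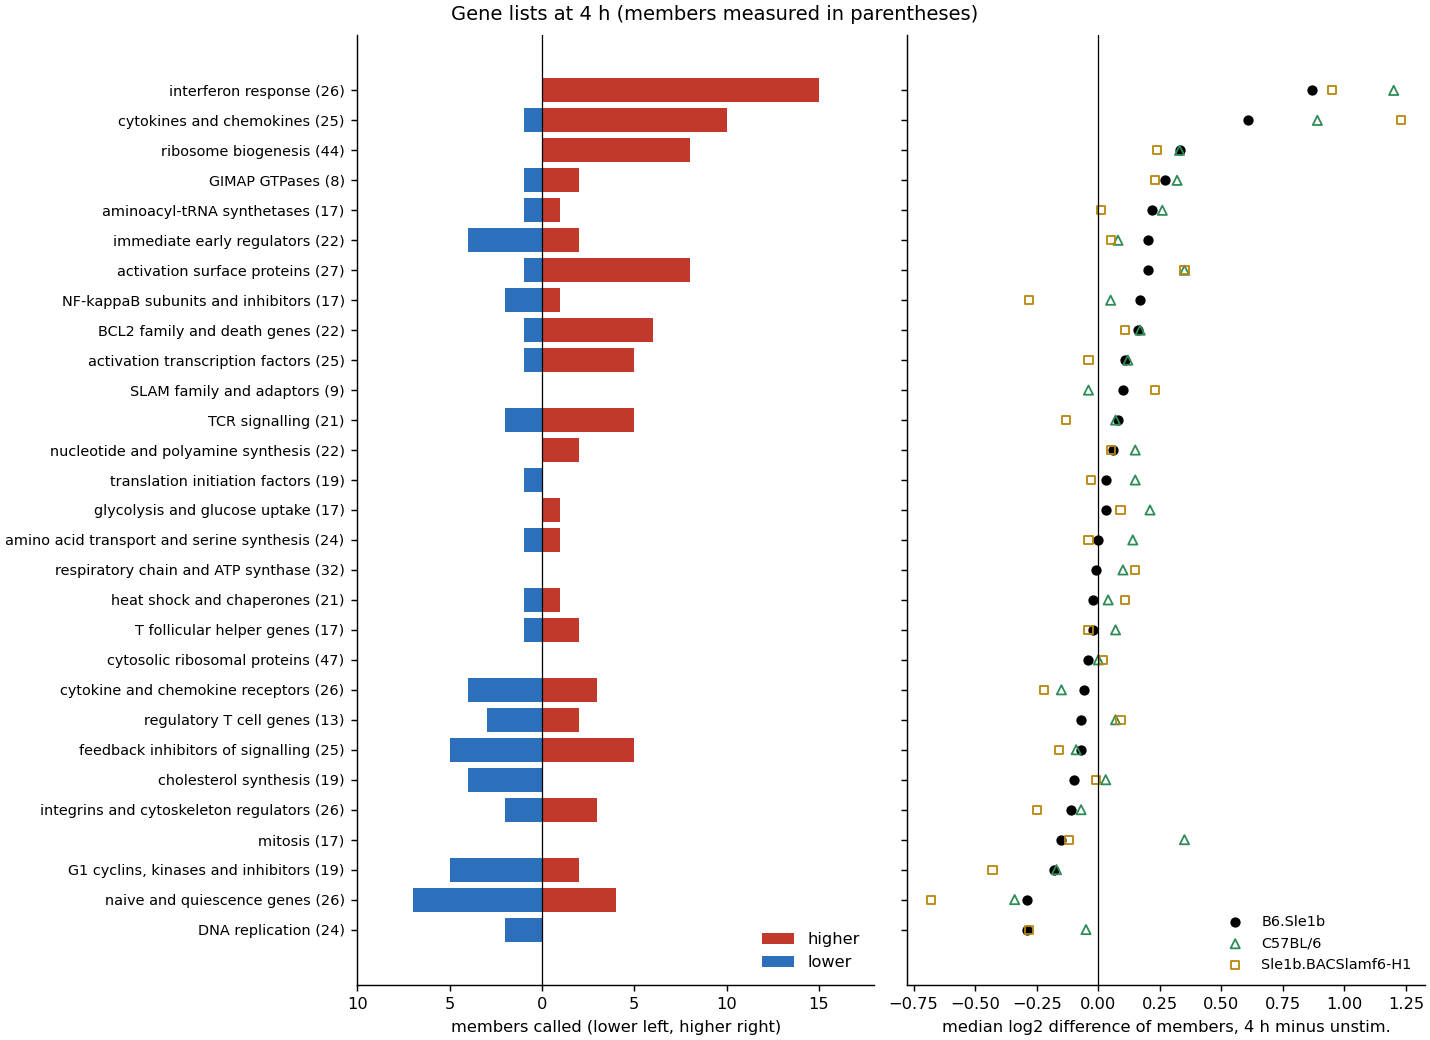
Left, for each of 29 gene lists (rows, members measured in parentheses), the number of members called higher (red, to the right) or lower (blue, to the left) at 4 h in B6.Sle1b; right, the median log2 difference of the members in B6.Sle1b (black circles), C57BL/6 (green triangles) and Sle1b.BACSlamf6-H1 (open squares). The interferon list has the most members called (15 of 26) and the highest B6.Sle1b median (0.87), and the cytokine list is next (0.61).

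The same step in the other strains had the same direction for nearly all called genes. Across the 973 genes called in B6.Sle1b, 971 had the same sign in C57BL/6 and 960 in Sle1b.BACSlamf6-H1, with a Pearson r across these genes of 0.974 and 0.951, given as a description of genes that were chosen in B6.Sle1b. Ccl3 differed by 5.60 in C57BL/6 and 5.01 in Sle1b.BACSlamf6-H1 against 5.0 in B6.Sle1b. Il2 differed by 1.98 and 1.93 against 1.84, and Myc by 2.30 and 2.25 against 2.23. For Slamf6 the B6.Sle1b response minus that of C57BL/6 was 0.27 (95% interval -0.22 to 0.76), and minus that of Sle1b.BACSlamf6-H1 it was 0.12 (-0.37 to 0.62).

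In the test of the difference between responses, 0 genes (0.0% higher and 0.0% lower) were called by limma against C57BL/6, with 84 higher and 292 lower at an unadjusted p under 0.05. Against Sle1b.BACSlamf6-H1 0 genes (0.0% and 0.0%) were called, with 312 and 591 at that unadjusted level. The typical gene's difference of responses had a standard error of 0.235, so its 95% interval, not adjusted for the number of genes, reached 0.489 to either side. Differences well beyond that were not called after adjustment, as the values below show, so a difference of that size may not be detectable with 3 arrays per group. With limma array weights 294 and 1016 genes were called against C57BL/6 and 0 against Sle1b.BACSlamf6-H1.

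For each test the 5 genes of lowest p are given with their 95% intervals. Stfa3 fell by 1.81 on the log2 scale in B6.Sle1b and differed by -0.38 in C57BL/6 and 0.17 in Sle1b.BACSlamf6-H1. Its response was lower than that of Sle1b.BACSlamf6-H1 by -1.98 (95% interval -2.74 to -1.21, p 2.384e-05, adjusted p 0.408) and than that of C57BL/6 by -1.42 (-2.19 to -0.66). Because its 4 h level in B6.Sle1b was not above background, the size of that fall and of these differences rests on a group at the floor. Without unstimulated replicate 2 of B6.Sle1b, the lowest array of its group for this gene, Stfa3 was called in both tests (adjusted p 0.0273 and 0.000518). The neutrophil marker list, of which Stfa3 is a member, averaged 4.38, 4.94 and 3.79 unstimulated and 3.91, 4.68 and 3.56 at 4 h, and its part in this result was not tested. Sostdc1 differed by -1.58 in B6.Sle1b, -0.29 in C57BL/6 and -0.56 in Sle1b.BACSlamf6-H1 (against C57BL/6 -1.29, interval -1.99 to -0.59).

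Insl6, an insulin-like peptide gene, differed by 1.71 in B6.Sle1b, 2.72 in C57BL/6 and 2.84 in Sle1b.BACSlamf6-H1, with differences of responses of -1.01 (-1.60 to -0.43) and -1.13 (-1.71 to -0.54). Cradd, a death domain adaptor, differed by 0.01 in B6.Sle1b and 0.71 in C57BL/6 (-0.70, interval -1.09 to -0.32). Against Sle1b.BACSlamf6-H1 the small GTPase gene Rab25 had a difference of responses of -1.0 (-1.47 to -0.53), Fam78b of -0.79 (-1.19 to -0.40) and Sash3, a lymphocyte adaptor, of 0.64 (0.31 to 0.97). These 5 genes were not called by limma (adjusted p 1.0 against C57BL/6 and 0.774 against Sle1b.BACSlamf6-H1).

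Gbp2, another of the 5 nearest to a difference from C57BL/6, and Ifng, given as a cytokine gene and not for its rank, had smaller point estimates in B6.Sle1b than in the other strains. Gbp2 rose by 2.73 in B6.Sle1b and differed by 3.56 in C57BL/6 and 3.48 in Sle1b.BACSlamf6-H1, a difference of responses of -0.83 (interval -1.30 to -0.36) from C57BL/6. For Ifng the responses were 0.89, 2.14 and 1.84, with a difference of -1.25 (-2.14 to -0.37) from C57BL/6 and -0.95 (-1.83 to -0.07) from Sle1b.BACSlamf6-H1. Without both dim arrays the B6.Sle1b response of Ifng was 1.31. Neither gene passed the adjusted threshold in either test (limma adjusted p 1.0 against C57BL/6 and 0.774 against Sle1b.BACSlamf6-H1 for both). The median of the interferon list was 0.87 in B6.Sle1b, 1.20 in C57BL/6 and 0.95 in Sle1b.BACSlamf6-H1, beside -0.01, 0.03 and 0.04 over all genes. Cytokines had medians of 0.61, 0.89 and 1.23. Csf2 differed by 3.20, 4.30 and 3.13 and Il17a by 1.89, 0.89 and 2.13, while Sema7a differed by 4.45, 3.46 and 3.69.

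**Figure D4:**
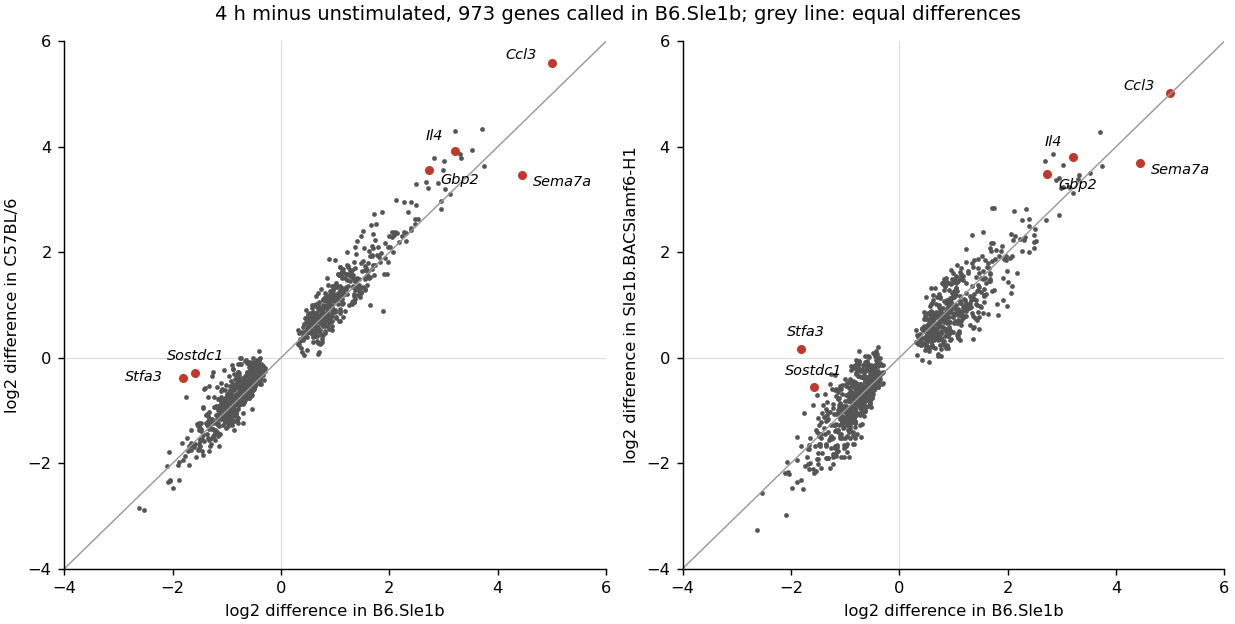
Each point is 1 of the 973 genes called in B6.Sle1b, placed by its log2 difference between 4 h and unstimulated in B6.Sle1b (x axis) and in C57BL/6 (left) or Sle1b.BACSlamf6-H1 (right, y axes); the grey line marks equal differences. Most points lie near the line, Stfa3 (-1.81, with its B6.Sle1b 4 h level at background, against -0.38 and 0.17) and Sostdc1 (-1.58 against -0.29 and -0.56) lie above it, and Gbp2 (2.73 against 3.56 and 3.48) does too.

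By 24 h the early response had split into genes that returned, genes that stayed and genes that went on. The 24 h values were set against the same 4 h arrays, where 2236 genes (13.1%) were higher at 24 h and 1906 (11.1%) lower, and are given gene by gene because both comparisons use the 4 h arrays. The interferon list had a median difference from 4 h to 24 h of -1.07. Oas2 went from 7.06, 6.56 and 6.94 at 4 h to 4.93, 5.01 and 4.95, while Gbp2 was at 11.86, 12.14 and 12.15 (-0.37 ± 0.16, adjusted p 0.109). Ifit1, not called at 4 h, was at 6.95, 7.16 and 7.57 at 24 h. Immediate early genes had a median of -1.21: Fos was at 5.65, 5.81 and 5.16 and Nr4a1 at 9.46, 9.59 and 8.57.

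Cytokines parted. Il2 went on to 8.29, 8.18 and 7.41 (1.61 ± 0.36 above 4 h) and Lta by 1.91 ± 0.21, while Lif (-1.71 ± 0.34) and Il4 (-1.14 ± 0.27, to 9.62, 9.06 and 8.72) were lower than at 4 h. Ccl3 rose further to 10.09, 9.58 and 8.74 (1.23 ± 0.41, adjusted p 0.0303). Resting-cell genes continued down, with a list median of -0.90: Klf4 was at 4.84, 5.04 and 4.87 and S1pr1 at 6.75, 6.91 and 6.97. Myc was at 10.17, 10.21 and 9.98 (0.41 ± 0.25, adjusted p 0.281).

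Growth and division lists had higher medians from 4 h to 24 h than from the unstimulated state to 4 h. Ribosome biogenesis had a median of 0.33 at 4 h and a further 0.96 by 24 h, nucleotide and polyamine synthesis 0.06 and 1.30, glycolysis 0.03 and 1.19, DNA replication -0.29 and 2.12, and mitosis -0.15 and 1.53. Mcm7, a subunit of the replicative helicase, was at 9.80, 9.54 and 9.64 at 24 h against 7.80, 7.61 and 7.72 at 4 h. Over all genes the median from 4 h to 24 h was 0.07.

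**Figure D5:**
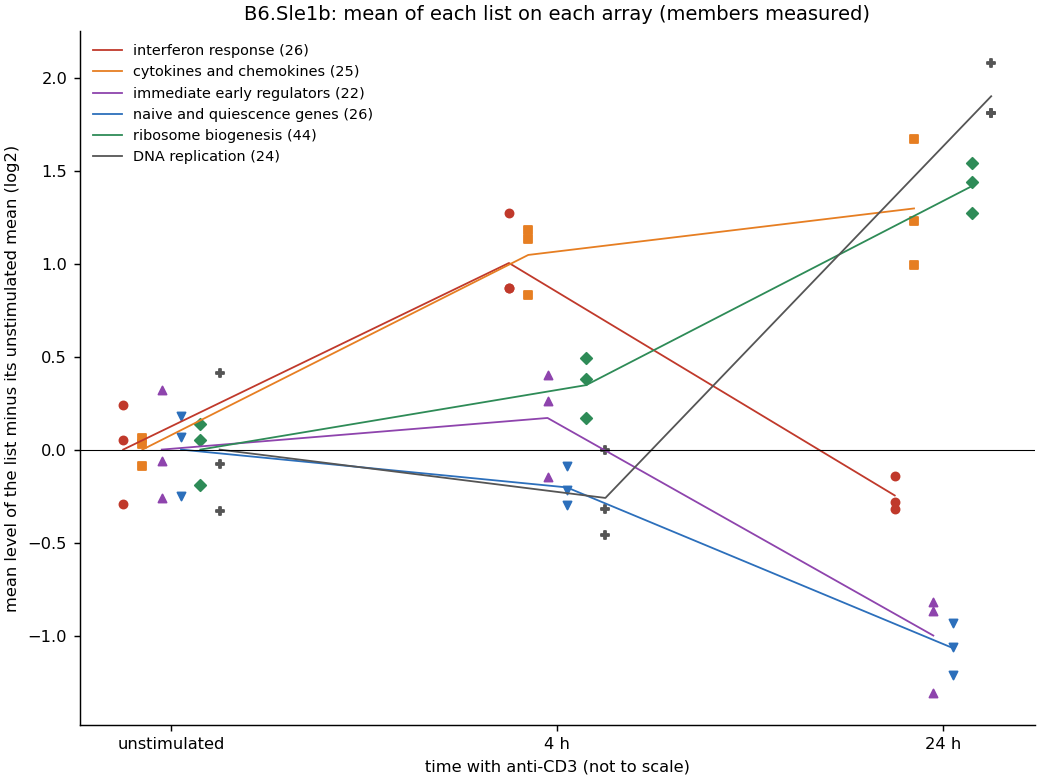
Each point is the mean of a gene list on 1 B6.Sle1b array minus the unstimulated mean of that list (y axis, log2), for 6 lists at 3 times (x axis, not to scale), with lines through the group means. The interferon list is at 0.87 to 1.27 at 4 h and back at -0.32 to -0.14 at 24 h, and the DNA replication list is at -0.46 to 0.00 at 4 h and 1.81 to 2.08 at 24 h.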

How the data were processed

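Each RNA sample was read on its own 1-colour Affymetrix array (HT MG-430 PM). The deposited values are linear intensity values of 45141 probe sets, made by the authors with RMA per the submitters' processing notes (no version stated). The arrays were not on 1 common distribution as deposited: their 75th percentiles ran from 34.2 to 53.3. Arrays hold no read depth: the number of arrays limits precision. Log2 was taken with no filter or pseudocount. Of the probe sets 28898 had 1 gene symbol, 551 several and 15692 none; 28689 were updated by Entrez ID through RefSeq GRCm38.p6, and the brightest probe set stood for each of 17097 genes. Of 728 further probe sets of called genes above background, 652 differed with the same sign, whether called or not. Another 4 (of Fam120b, Lpp, Sulf2 and Wdr33) were called in the opposite direction.

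One mean per strain and time was fitted over the 26 biological arrays with limma 3.58.1 (R 4.3.3, eBayes, Benjamini-Hochberg), with differences of responses as interactions. The 2 technical arrays were left out. Background was the 95th percentile of 23 nonspecific control probe sets per array. A group not above background gives a bound, from array background. On simulated data with changed genes added, for this comparison over 17097 genes, 80 of 100 changes of log2 1 and 100 of 100 of log2 2 were recovered. In the same run 7 unchanged genes were called. The simulated noise was independent for each gene and array. Deviations shared across an array, such as a dim replicate, were therefore absent, and recovery in their presence was not tested.

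Replicate numbers were checked for pairing, which the labels do not state. Deviations of same-numbered 4 h and unstimulated arrays correlated at 0.526, 0.552 and 0.734 over 5157 genes with a mean above 6. Unstimulated replicate 2 with 4 h replicate 1 gave 0.399, and 1 with 2 gave 0.184. Replicate 3 with another number gave -0.453 to -0.632. Replicate 3 was the dim array of both groups, so pairing and shared brightness cannot be told apart here. The main fit therefore has no block. The block result is given where it changes a call.

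The genes and lists were chosen with earlier results of these data known. Named genes were the 15 largest non-overlapping rises and falls, the SLAM family and up to 4 called members per list and direction by adjusted p; further list members were added after their values were seen. Stability without single arrays was computed for 206 named genes: 107 of the 159 called kept the call without any 1 of the 6 arrays.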

Additional observations from a re-analysis of the deposited data

How the results depend on the processing

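In B6.Sle1b at 4 h against unstimulated, 440 genes were higher and 533 lower in the fit over 26 arrays. With the replicate number as a block the counts were 498 and 680. Leaving out each array in turn gave 308 to 416 higher and 335 to 772 lower: 352 were lower without unstimulated replicate 1 and 335 without 4 h replicate 3. The fit on the 6 arrays alone called 185 and 166, for a cause that was not tested. In it 66 of the 159 called genes among those named lost their call. Il2, Cd247, Gbp3, Noc4l, Nolc1, Ly6c1 and Mvk were among them. Quantile normalizing again called 677 higher, brightness as a covariate 1028 and 1187, and array weights, whose estimation stopped before its tolerance, 1633 and 2864; the causes were not tested. Testing against a log2 difference of 1 (treat) called 42 and 6 by construction. Leaving out both dim arrays, chosen after seeing the data, called 284 higher. No call of a named gene reversed its direction under these settings.

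For the difference from the C57BL/6 response, array weights called 294 higher and 1016 lower, and leaving out 1 array gave 0 to 1 lower (Stfa3 without B6.Sle1b unstimulated replicate 2, Gpr160 without replicate 3). For the difference from the Sle1b.BACSlamf6-H1 response, it gave 0 to 1 lower (Stfa3 without B6.Sle1b unstimulated replicate 2). The replicate block called 0 in both.

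At 24 h against 4 h, 2236 and 1906 genes became 2444 and 2105 with the block, 1800 to 2059 and 1475 to 1836 without single arrays, 3511 and 2901 with array weights, and 203 and 166 with treat. With only the arrays of the groups compared they became 2476 and 2263. Signal near background limits dim genes such as Mx1.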
